A study of Mus musculus with 6 samples.

Results

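The 38 genes described here carry out DNA replication and mark S phase. They were taken by symbol from a fixed list, and all 38 were found among the 32285 genes of every deposited matrix. The cells were OT-II CD4+ T cells, whose receptor recognises an ovalbumin peptide, from OTII+/+RAG-/- donors that were either WT or TgfbrIWT/mut. TgfbrIWT/mut mice are heterozygous for the M318R allele of Loeys-Dietz syndrome knocked into Tgfbr1, the type I TGF-beta receptor. Purified donor cells were injected i.v. into CD45.1 WT hosts, so only the transferred cells differed in genotype. Hosts drank water with 1.5% ovalbumin for 7 days, and on day 8 the transferred cells were recovered from the small intestine's lymphoid follicles (Peyer's patches), gated as CD4+, CD8-, TCRβ+ and positive for CD45.2 but not CD45.1. Ages of donors and hosts for this transfer were not given in the sources used here. Each genotype had 2 libraries, called WT 1, WT 2, mutant 1 and mutant 2. The labels do not say whether each library is a separate animal, so the error behind every p-value is the variation from library to library, part or all of which may be technical.

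Before a eukaryotic cell copies its DNA, the origin-loading factors Cdc6 and Cdt1 place rings of the Mcm2 to Mcm7 helicase on origins in G1, and geminin (Gmnn) blocks reloading later in the cycle. Cdc45 and the GINS complex switch the helicase on, primase and DNA polymerases extend the strands, and the sliding clamp PCNA holds the polymerases and the enzymes that process Okazaki fragments. Many of these genes are transcribed together at the G1 to S boundary under E2F factors, and CD4+ T cells divide rapidly in the first days after they meet antigen.

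After filtering, 2988 T cells were kept, namely 1285, 634, 886 and 183 in WT 1, WT 2, mutant 1 and mutant 2, which held 12093713, 5735568, 7885052 and 1709724 UMIs (unique molecular identifiers, each standing for 1 captured transcript). Median UMIs per cell lay between 8616 and 9029 in the 4 libraries, and 99.7% to 100% of kept cells had a UMI of a Cd3 gene, a defining T cell marker. Counts for 3 antibody tags are present in the WT matrices and absent from those of the mutant, so handling with tag antibodies and genotype cannot be told apart. Pairs of libraries shared 4 cell barcodes in all among the kept T cells. A cluster of 64 B-like cells and 1 of 25 epithelial-like cells passed the filters and were left out of the T cells. Of the 12 B cell markers, 2, 2, 4 and 5 were at 0 in these libraries in turn. Their summed level in kept T cells was 174, 243, 307 and 360 CPM in the same order, where CPM is a gene's UMIs per 1000000 UMIs of the library. That sum was higher in both mutant libraries than in both WT libraries.

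The promoters of several of these genes hold the letters that E2F factors are known to bind. RefSeq windows on GRCm38.p6 of 300 bases (250 before to 50 after the transcription start) were at hand for 30 of the 38 genes, in 35 windows because some genes have more than 1. Ccne2, Dscc1, Exo1, Gins2, Gmnn, Mcm4, Rfc2 and Usp1 had no entry. The 4 words TTTCGCGC, TTTGGCGC, TTTCCCGC and TTTGCCGC were searched on both strands, where matches to different words may overlap. At least 1 word was present in 12 of the 35 windows (34.3%), those of Cdc6, Cdt1, Hells, Lig1, Mcm3, Mcm5, Mcm6, Mcm7, Pclaf, Pola1, Pold3 and Uhrf1, and in 2.26% of all 32851 windows of that length. The first word was found in 0.323% of all windows, the second in 0.514%, the third in 1.07% and the fourth in 0.441%, and the fourth was in no member's window. A match is a description of letters and shows no binding. The 4 windows printed belong to 2 helicase subunits with overlapping matches, to Cdc6, the member most restricted to a few cells below, and to Pclaf, the member that differed most clearly between genotypes. Each runs from 170 bases before to 10 bases after the start, 5′ to 3′ on the gene's own strand, with matches in capitals. On GRCm38.p6 they lie at chr1:128359696-128359875 (minus strand), chr8:75109339-75109518 (plus strand), chr11:98907981-98908160 (plus strand) and chr9:65890153-65890332 (plus strand).
Mcm6: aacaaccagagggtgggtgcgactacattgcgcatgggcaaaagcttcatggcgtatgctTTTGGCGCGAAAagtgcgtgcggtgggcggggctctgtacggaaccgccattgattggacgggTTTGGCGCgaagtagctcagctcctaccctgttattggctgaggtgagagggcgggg
Mcm5: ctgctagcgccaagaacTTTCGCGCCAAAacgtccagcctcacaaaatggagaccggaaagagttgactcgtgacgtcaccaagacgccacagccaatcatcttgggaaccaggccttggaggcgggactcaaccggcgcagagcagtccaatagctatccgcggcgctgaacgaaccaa
Cdc6: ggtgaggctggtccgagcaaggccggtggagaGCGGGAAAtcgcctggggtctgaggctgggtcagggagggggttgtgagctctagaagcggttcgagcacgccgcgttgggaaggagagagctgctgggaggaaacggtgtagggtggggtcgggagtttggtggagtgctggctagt
Pclaf: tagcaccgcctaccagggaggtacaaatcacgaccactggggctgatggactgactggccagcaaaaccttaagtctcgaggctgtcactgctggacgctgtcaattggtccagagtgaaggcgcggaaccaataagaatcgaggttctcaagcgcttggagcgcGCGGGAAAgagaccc
Mcm6 holds 3 matches, of which the first 2 overlap on opposite strands, and Mcm5 holds the same overlapping pair, read from the other strand. The single match of Pclaf spans its start site.

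The 38 genes together gave 28609 UMIs in kept T cells. Their summed level was 1015 and 1056 CPM in WT 1 and WT 2 and 1026.5 and 1277 CPM in mutant 1 and mutant 2. Mutant 2, the library with the fewest cells, stood above the other 3, and mutant 1 lay between the WT libraries, so the genotypes overlapped. Each value is a count of 3′ tags, in which a transcript is counted once whatever its length.

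Dut, which removes dUTP so that uracil stays out of DNA, gave the most UMIs of the 38 genes. It stood at 111 and 89.6 CPM in WT cells and at 85.5 and 99.4 CPM in mutant cells. Slbp, which binds the stem loop of histone mRNAs, varied least of the 4 genes with the most UMIs, at 96.5, 97.3, 98.5 and 105 CPM in the same order. Pcna, the sliding clamp, stood at 95.4, 100.3, 85.2 and 105 CPM. The histone chaperone Nasp stood at 73.3, 83.2, 76.1 and 86.0 CPM. For Dut, Pcna and Nasp the genotypes overlapped, and for Slbp both mutant libraries were higher by less than 10 CPM.

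Usp1, the deubiquitinase that takes ubiquitin off PCNA, stood at 51.5 and 61.7 CPM in WT cells and at 57.8 and 57.9 CPM in mutant cells. Rfc2, a subunit of the clamp loader, stood at 56.2, 48.0, 52.5 and 66.7 CPM. The genotypes overlapped for both. Of the helicase subunits, Mcm6 stood at 49.6, 49.5, 53.0 and 85.4 CPM, with mutant 2 far above the rest. Mcm4 stood at 43.7, 42.9, 43.0 and 58.5 CPM, Mcm3 at 44.2, 40.4, 45.3 and 50.9 CPM, and Mcm7 at 34.98, 37.5, 31.6 and 52.6 CPM. In each of these 4 helicase genes mutant 2 was the highest library, while mutant 1 stayed near the WT libraries.

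At the other end, E2f8, a repressor of E2F targets, gave 22 UMIs in all, the 5′ to 3′ exonuclease Exo1 33, cyclin E2 (Ccne2) 57 and Cdc6 65. The other 24 genes lay between 77 UMIs for Dscc1 and 973 for Lig1, the ligase that seals Okazaki fragments. Among them were the primase subunit Prim1 (341), the polymerase alpha subunit Pola1 (391), the flap nuclease Fen1 (463), geminin (Gmnn, 504), Tyms, which makes dTMP (578), Mcm2 (582) and the chromatin remodeller Hells (767). By role, the 14 fork genes held 32.6% of the 28609 UMIs, the 9 licensing genes 24.9%, the 5 genes of chromatin and histone supply 20.7%, the 5 nucleotide genes 14.7%, the 2 repair genes 6.44% and the 3 genes of cyclin E and E2F 0.696%.

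**Figure D1:**
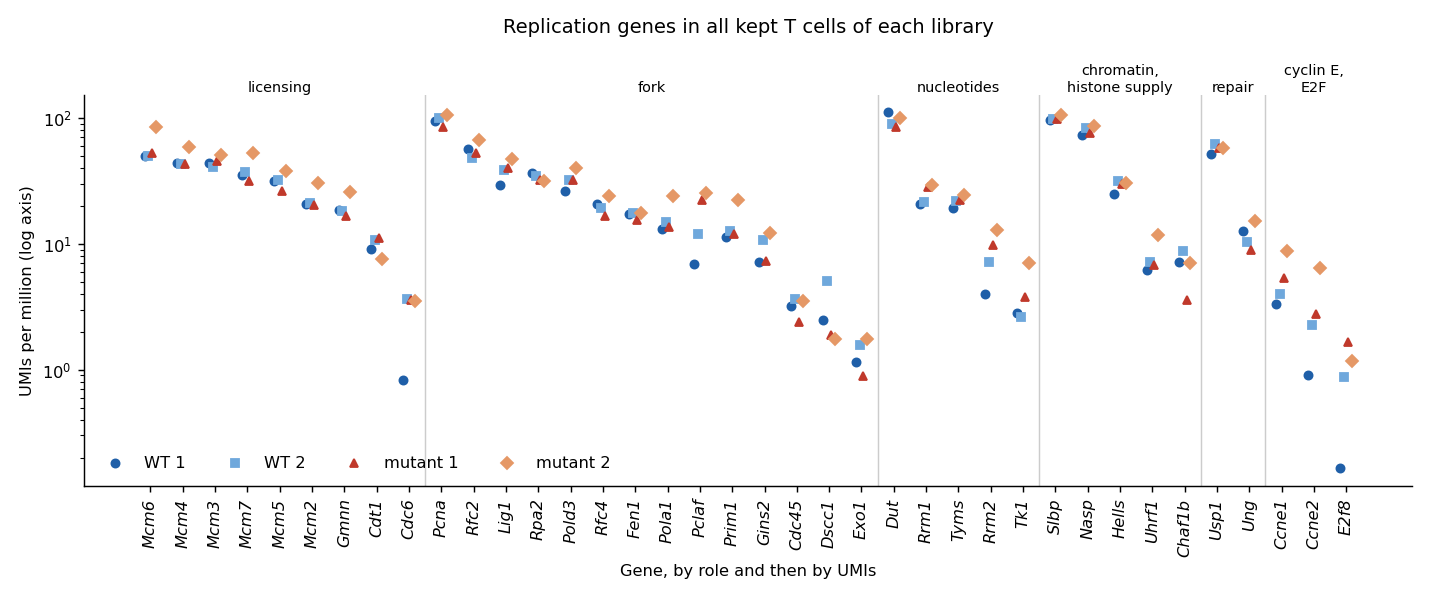
CPM of each of the 38 genes in all kept T cells, on a log axis, with 1 point per library and genes ordered by role and UMIs. The 4 points of Dut, Slbp, Pcna and Nasp lie close together, while those of Pclaf and Rrm2 are lowest in WT 1 and highest in mutant 2.

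Cells with many of these genes at once were few. To count them at equal depth, each kept T cell with at least 4000 UMIs was thinned at random to 4000 UMIs, which left out 161 shallower cells. A cell was called member-rich when UMIs of at least 8 of the 38 genes remained. The median cell showed 3 genes in every library, 172 of 2827 cells showed none, and the highest cell showed 24. In all, 108 of 2827 cells (3.82%) were member-rich. By library these were 43 of 1249 cells in WT 1 (3.44%, 95% exact Clopper-Pearson interval 2.50 to 4.61), 23 of 598 in WT 2 (3.85%, 2.45 to 5.72), 33 of 824 in mutant 1 (4.00%, 2.77 to 5.58) and 9 of 156 in mutant 2 (5.77%, 2.67 to 10.7). All 4 intervals overlapped, and they cover counting error only. With 2 libraries a group, the exact permutation test cannot reach a two-sided p below 0.333, so no test between genotypes was made of these shares.

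The class is a range and not a cell type. No gap separated the class from the other cells, with 43 cells at 7 genes, 28 at 8 and 44 at 12 or more. Without thinning, 22.3%, 20.8%, 17.7% and 26.8% of cells in WT 1, WT 2, mutant 1 and mutant 2 had UMIs of at least 8 genes, and deep cells show more genes. Member-rich cells were themselves deep, with median UMIs before thinning of 15195 to 16957 against 8760 to 9351 in the other cells. Of the 31 doublets that were removed, 1 would have counted as member-rich. Member-rich cells held 22.9%, 29.4%, 31.2% and 41.8% of the member UMIs (libraries in the same order) on 6.02%, 6.23%, 6.65% and 9.07% of all UMIs.

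T cell states were taken from clusters made without the 38 genes and without the other cell cycle genes listed for this work. In a group of 204 cells, cluster 4, the share of cells that were member-rich was higher than in any other T cell state of each library. Its leading genes included Srm, which makes spermidine, Cdca7, Mettl1, Hspd1, the mitochondrial chaperonin, and the ribosome assembly genes Nhp2 and Mrto4. It met no marker list and stays unnamed. In cluster 4, 45 of 198 cells were member-rich (22.7%, 17.1 to 29.2), namely 20 of 116 in WT 1 (17.2%), 14 of 45 in WT 2 (31.1%), 9 of 30 in mutant 1 and 2 of 7 in mutant 2. Cells of this cluster were deeper than the rest, at a median of 11764 UMIs, and the shares were counted at 1 depth. Ung, a member, was among its 10 leading genes although no member was used to form it, so the clusters drew on genes that go with the members and the share is a description.

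Of T follicular helper (Tfh)-like cells, which help B cells in follicles, 37 of 792 were member-rich (4.67%, 3.31 to 6.38), at 5.64% and 2.98% in WT cells and 4.26% and 9.43% in mutant cells. Naive or memory-like cells, led by Klf2, Ccr7 and S1pr1, had 11 of 629 (1.75%, 0.876 to 3.11). Cluster 1, an unnamed group led by Angptl2 and Egr3, had 5 of 714 (0.700%, 0.228 to 1.63), and the Xist-led cluster 3 had 1 of 238 (0.420%, 0.0106 to 2.32). Th1 or cytotoxic-like cells had 3 of 124 (2.42%), and cluster 7, in which markers of regulatory and gut-homing T cells tied, had 2 of 90 (2.22%). The shallow cluster 6 had 4 of 42 (9.52%, 2.66 to 22.6), with most of its 116 cells too shallow to count. With the 4 libraries pooled, the interval of cluster 4 lay above those of Tfh-like cells, clusters 1 and 3 and naive or memory-like cells, and overlapped that of cluster 6. These intervals count cells and do not cover the spread between libraries. In mutant 2 alone, those of cluster 4 (3.67 to 71.0) and Tfh-like cells (3.13 to 20.7) overlapped. Among the B-like cells left out, 6 of 39 were member-rich (15.4%, 5.86 to 30.5). Of the epithelial-like cells 0 of 5 were, which allows a share of up to 60.0% (3 counts of the total).

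**Figure D2:**
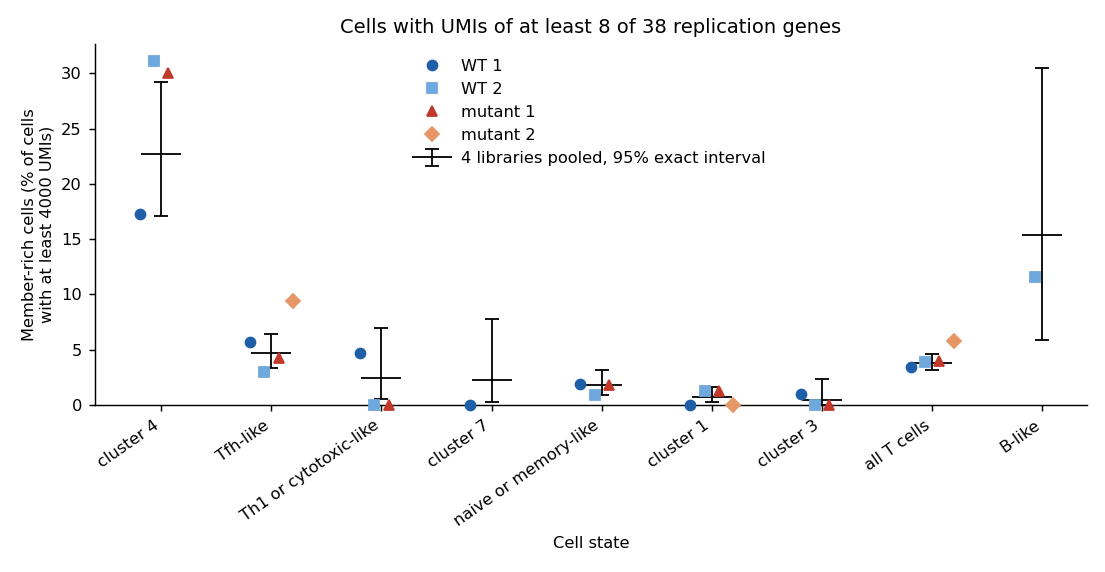
Share of member-rich cells in each state, in percent of cells with at least 4000 UMIs. Horizontal lines are the 4 libraries pooled with exact 95% intervals, and symbols are libraries with at least 20 such cells. Cluster 4 sits at 22.7%, Tfh-like cells at 4.67% and naive or memory-like cells at 1.75%.

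Without any threshold, the summed member level was again highest in cluster 4 among the T cell states, but the order below it partly changed. The level was 2135 CPM in cluster 4, 1152 CPM in Tfh-like cells, 1068 CPM in the shallow cluster 6 and 918 CPM in Th1 or cytotoxic-like cells. Cluster 1 (805 CPM), naive or memory-like cells (794 CPM) and cluster 3 (792 CPM) were close together. B-like cells stood highest at 3129 CPM. The lowest state, cluster 7, still stood at 766 CPM. Cluster 4 and naive or memory-like cells stood at 632 and 175 CPM in the licensing genes and at 619 and 273 CPM in the fork genes. In cyclin E and E2F genes, Tfh-like cells stood at 14.3 CPM and cluster 4 at 12.1 CPM.

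The member-rich cells of each library were spread over the states in different proportions. Among WT cells, cluster 4 gave 46.5% and 60.9% of member-rich cells and Tfh-like cells 25.6% and 21.7%. In the mutant libraries the order was turned, with 27.3% and 22.2% from cluster 4 and 48.5% and 55.6% from Tfh-like cells. The WT and mutant libraries did not overlap in either share, and the shares of mutant 2 rest on 9 cells. Of all cells deep enough to count, cluster 4 made up 9.29% and 7.53% in WT and 3.64% and 4.49% in mutant, and Tfh-like cells 15.6% and 28.1% in WT and 45.6% and 33.97% in mutant. Of the 15 Tfh markers 3 were higher in mutant in the edgeR comparison of all kept T cells below. Within Tfh-like cells 0 of 15 passed (median log2 fold change -0.11), where 4 had an unadjusted p under 0.05 and DESeq2 called 0.

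Within member-rich cells, the 45 of cluster 4 and the 37 Tfh-like cells differed in the members they held. Pclaf, a small PCNA-binding protein, stood at 75.1 CPM in cluster 4 and 236 CPM in Tfh-like cells (63 and 142 UMIs). Ccne2 stood at 7.15 and 39.8 CPM (6 and 24 UMIs), and E2f8 at 2.38 and 24.9 CPM (2 and 15 UMIs). The reverse held for Ung, the glycosylase that removes uracil from DNA, at 119 and 63.1 CPM (100 and 38 UMIs), and for Exo1 at 19.1 and 3.32 CPM (16 and 2 UMIs). Of the licensing genes, Mcm6 stood at 331 and 383 CPM and Mcm5 at 204 and 196 CPM. These cells were chosen by the members and the 2 states draw on libraries unequally, so the values are a description.

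The members differed widely in how far their transcripts were confined to such cells. For each gene the cells were chosen by the other 37 alone (at least 8 of them after thinning), so that no gene chose the cells it was measured in. Over the 38 genes the median level was 8.07 times as high in member-rich as in other cells, and 37 genes were higher in all 4 libraries. Exo1 was higher in 3 of 4. The median fold by library was 6.06, 8.00, 9.36 and 7.94.

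Some members were present throughout. Pold3, a subunit of DNA polymerase delta, was 66.4 against 30.6 CPM (2.17-fold), and Usp1 118 against 53.3 CPM (2.22-fold). Rfc2 (2.82-fold), Nasp (3.17-fold), Slbp (3.31-fold) and Rpa2, a subunit of the single-strand binding complex (3.68-fold), had the next lowest folds. Over all 38 members, the median share of UMIs in cells rich in the other 37 genes was 34.1%. Slbp was detected in 29.1% of thinned T cells and in 26.2% of naive or memory-like cells, and Dut in 28.7% and 34.98%.

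Others were low outside these cells. Of the Cdc6 UMIs 96.9% lay in cells rich in the other 37 genes (65 UMIs in all), of E2f8 86.4%, of Tk1 (thymidine kinase) 77.5% and of Rrm2, the S phase subunit of ribonucleotide reductase, 73.4%. Rrm2 stood at 95.7 against 1.68 CPM (57.0-fold), Tk1 at 43.1 against 1.01 CPM (42.6-fold), Cdc45 at 31.1 against 1.08 CPM (28.8-fold) and Ccne2 at 27.6 against 1.10 CPM (25.1-fold). Pclaf (22.9-fold) and Uhrf1, which reads hemimethylated DNA (22.6-fold), followed. Both subunits of ribonucleotide reductase were measured, and the constitutive Rrm1 was 5.28-fold higher, with 26.7% of its UMIs in member-rich cells. The helicase genes lay in the middle, from 5.77-fold for Mcm4 to 11.6-fold for Mcm5.

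**Figure D3:**
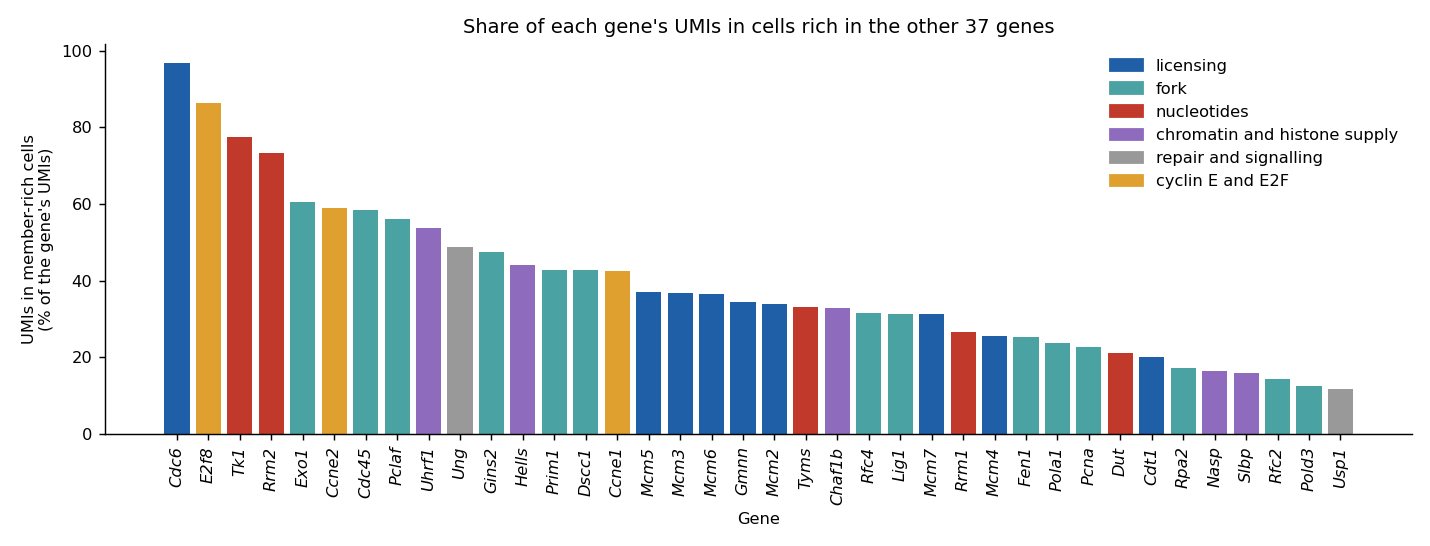
Percent of the UMIs of each gene that lay in T cells with at least 8 of the other 37 genes after thinning, with bars coloured by role. Cdc6 stands at 96.9% and E2f8 at 86.4%, and Usp1 is lowest at 11.6%.

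Thinned counts of the members, taken as the log of 1 plus the count, were weakly correlated over cells. Over 703 pairs and 2827 thinned cells the median correlation was 0.06, 21 pairs exceeded 0.2, and Tk1 with Cdc6 was highest at 0.40. The cells share libraries and were brought to 1 depth, and detection is sparse, so these values are a description. The most abundant pair, Slbp and Dut, stood at 0.07.

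Member-rich cells were then compared with other cells in the genes that are not members, with library as a term in the quasi-likelihood test of edgeR, adjusted by Benjamini and Hochberg's method. Of 7862 such genes 28.5% passed, with 1287 (16.4%) higher and 955 (12.1%) lower. The cells were chosen by the members, so genes that go with the members were bound to differ. The list of other replication and S phase genes had 38 of 40 tested genes higher, 0 lower and a median log2 fold change of 1.79. Its 3 genes with the most UMIs were Paics, which makes purines (log2 fold change 1.06), Rfc1, the large clamp loader subunit (0.99), and Casp8ap2 (1.03), each higher in 4 of 4 libraries. Of the G2 and mitosis genes 17 of 20 tested were higher and 0 lower, with H2afz, a histone variant, at 1.77 and Hmgb2 at 1.29. The condensin gene Smc4 did not pass (-0.19, edgeR adjusted p = 0.127). Counted per cell, 23 of 108 member-rich cells (21.3%) also had UMIs of at least 8 G2 and mitosis genes after thinning, against 40 of 2719 other cells (1.47%).

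Of the G1 drivers, 6 of 7 tested were higher, among them the kinases Cdk4 (1.46) and Cdk6 (1.23), the transcription factors Myc (1.30) and E2f3 (1.57), the phosphatase Cdc25a (1.05) and, by little, cyclin D2 (Ccnd2, 0.29). Cyclin D3 (Ccnd3) was lower, at 125 against 210 CPM on average (-0.72). The brakes of the cycle went both ways. Btg1 and Btg2, which slow growth of lymphocytes, fell by 1.23 and 1.04 on the log2 scale, with means of 653 against 1548 CPM and 113 against 235 CPM, and the CDK inhibitor Cdkn1b fell by 0.80 and Rbl2 by 0.59. The E2F partner Rbl1 (1.62), the CDK4 inhibitor Cdkn2c (1.15) and E2f4 (0.53) rose. Of these, Rbl2 lost its call under 6 of 11 alternative settings, Ccnd2 under 5 and E2f4 under 4.

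Outside the cycle lists, the 5 largest rises were Rad54b (5.90), Dna2 (5.81), Fignl1 (5.64) and Chek1 (5.41), which act in recombination, fork processing and the S phase checkpoint, and the condensin gene Ncapg2 (4.31). Rad54b and Dna2 rested on 28 and 27 UMIs in all. The 5 largest falls were S1pr1, the receptor for leaving lymphoid tissue (-2.63), Mirt1 (-2.40), the interferon-inducible Ifi209 (-2.32), Gm42722 (-2.22) and Gabbr1 (-2.21). Naive or memory markers were lower as a group, 6 of 9 tested and 0 higher, with Klf2 at 21.8 against 95.6 CPM (-2.01), Lef1 at -1.56, Tcf7 at -0.83 and Satb1 at -0.63. Of 15 Tfh markers 2 rose and 6 fell, 7 had a log2 fold change above 0, and values ran from -0.88 to 0.89. The 4 with the most UMIs, Izumo1r (-0.88), Tnfsf8 (-0.55), Sh2d1a (-0.44) and Maf (-0.43), were each lower in 4 of 4 libraries. Of 6 Treg markers tested 2 rose and 1 fell, with Tnfrsf4 at 0.64 and Ctla4 at 0.27, and the call of Ctla4 was lost or reversed under 7 of 11 settings, while Ikzf2 (-0.24, edgeR adjusted p = 0.0620) and Tnfrsf18 (-0.18, edgeR adjusted p = 0.405) did not pass. Of 10 T cell markers 8 were lower. CPM values are shares of the total and member-rich cells held more UMIs, so a lower CPM need not mean fewer UMIs per cell. UMIs of these genes per cell were not compared.

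Without cluster 4, 802 of the genes that are not members passed in place of 2242. Of the 12 B cell markers 2 were abundant enough to test between the classes, and neither passed.

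The comparison of genotypes asks whether replication genes differ when the T cells themselves carry the mutated receptor. Over all kept T cells, the same edgeR test and adjustment covered 10731 genes, of which 1.54% passed, 102 (0.951%) higher and 63 (0.587%) lower in mutant cells. Of the 38 members 37 were tested, E2f8 being too low, and 1 passed, while 7 of 37 had an unadjusted p under 0.05, against 12.6% of all genes. Pclaf stood at 7.02 and 12.1 CPM in WT cells and at 22.7 and 24.2 CPM in mutant cells (TMM-scaled, as are all levels in the genotype comparisons), a log2 fold change of 1.35 ± 0.24 (SE, adjusted p = 0.00665). The 2 genotypes did not overlap for Pclaf. Of the 37 tested members 25 had a log2 fold change above 0 and 12 below, with a median of 0.08 against -0.01 over all genes. Libraries did not overlap for 16 of 37 members, 12 higher and 4 lower in mutant, where 46.0% of all tested genes did not overlap (22.7% higher and 23.3% lower).

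The licensing genes did not pass in any comparison below. Cdc6 had the highest log2 fold change of the 9 (0.86 ± 0.58) at 0.846, 3.69, 3.61 and 3.37 CPM in WT 1, WT 2, mutant 1 and mutant 2, and only WT 1 stood apart. Mcm5 had the lowest (-0.11 ± 0.17) at 32.3, 32.3, 26.7 and 36.5 CPM. Among the fork genes, Dscc1, part of a clamp loader that acts in sister chromatid cohesion, was lowest (-0.93 ± 0.51) at 2.54, 5.09, 1.94 and 1.69 CPM, with both mutant libraries below both WT libraries (edgeR adjusted p = 0.481). Rrm2 led the nucleotide genes at 4.06, 7.20, 9.94 and 12.4 CPM (1.00 ± 0.31, edgeR adjusted p = 0.136), and Dut was lowest (-0.18 ± 0.14). Of the chromatin genes, Uhrf1 was highest (0.29 ± 0.30), with mutant 2 alone above the rest at 6.34, 7.20, 6.97 and 11.2 CPM. The chromatin assembly subunit Chaf1b was lowest (-0.85 ± 0.33, edgeR adjusted p = 0.275) at 7.36, 8.78, 3.61 and 6.75 CPM. Cyclin E2 (Ccne2) had the largest value of all members (1.38 ± 0.56, edgeR adjusted p = 0.299) at 0.930, 2.28, 2.84 and 6.18 CPM, and cyclin E1 (Ccne1) stood at 3.38, 4.04, 5.42 and 8.43 CPM (0.79 ± 0.36, edgeR adjusted p = 0.378). Of the repair genes, Ung was the lower (-0.14 ± 0.25) at 12.9, 10.4, 9.17 and 14.6 CPM, with the WT libraries between the mutant libraries, and Usp1 stood at 0.01 ± 0.15. The 25 other tested members lay between -0.36 for Cdc45 and 0.75 for Tk1, and none of them passed.

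In Tfh-like cells, of 9028 genes 0.443% passed, 27 (0.299%) higher and 13 (0.144%) lower. Of 33 members tested 2 were higher, 3 had an unadjusted p under 0.05 (against 7.69% of all genes) and 28 had a log2 fold change above 0. Pclaf stood at 8.55 and 16.9 CPM in WT and 37.01 and 50.9 CPM in mutant (1.72 ± 0.29, edgeR adjusted p = 0.00530). Rrm2 stood at 3.32 and 5.83 CPM in WT and 15.6 and 21.8 CPM in mutant (1.93 ± 0.42, edgeR adjusted p = 0.0350). The genotypes did not overlap for either gene. In all, 6 of the 33 members did not overlap, each higher in mutant, where 36.2% of all tested genes did not overlap (18.3% higher and 18.0% lower). Rrm1, the partner subunit of Rrm2, stood at 25.2, 22.1, 34.3 and 37.8 CPM and did not pass (0.57 ± 0.23, edgeR adjusted p = 0.545). The median over members was 0.13, against 0.00 over all genes. Summed over the 38 members, Tfh-like cells stood at 1160 and 1073 CPM in WT and 1096 and 1638 CPM in mutant, before TMM scaling. Mutant 1 thus lay between the WT libraries, and mutant 2, with 57 Tfh-like cells, lay above both. In DESeq2 neither member passed in these cells (adjusted p = 0.115 for Pclaf and 0.849 for Rrm2). Without WT 1 neither passed in edgeR's quasi-likelihood test (adjusted p = 0.0757 for Pclaf and 0.418 for Rrm2), and without mutant 1 Rrm2 did not (adjusted p = 0.0528).

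In naive or memory-like cells 31 of 6930 genes passed (0.447%), 15 higher (0.216%) and 16 lower (0.231%), and 0 of 20 members, with 0 of 20 members at an unadjusted p under 0.05, against 7.53% of all genes. In DESeq2 6 genes passed there. In cluster 1, 0 of 8527 genes passed in edgeR's quasi-likelihood test (0.0%), where 535 (6.27%) had an unadjusted p under 0.05 and DESeq2 called 1. Of the 24 members tested there 1, the thymidylate synthase gene Tyms, had an unadjusted p under 0.05. The median member log2 fold change was -0.03 in both states. Members whose genotypes did not overlap numbered 5 higher and 3 lower in naive or memory-like cells, against 18.9% and 19.6% of all genes, and 4 in each direction in cluster 1, against 19.0% and 19.8%. Whether the genotype effect differs between Tfh-like cells and these states was not tested.

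**Figure D4:**
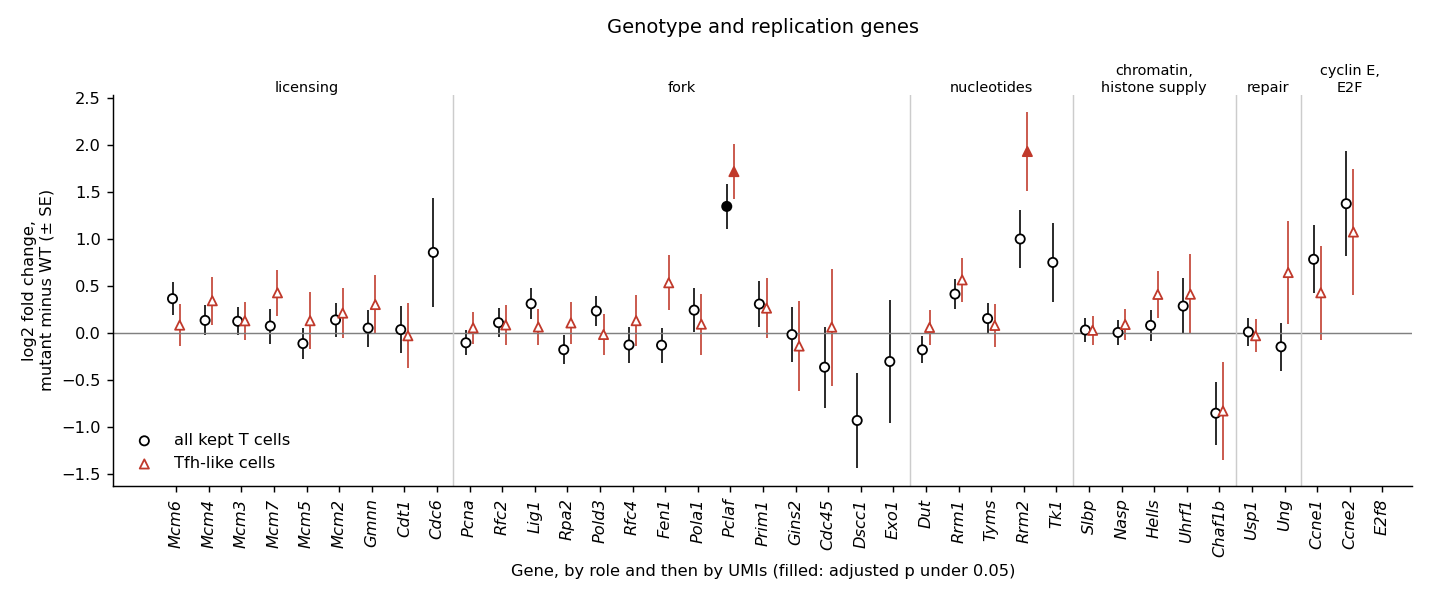
Log2 fold change of each member, mutant minus WT, with its SE, in all kept T cells (circles) and Tfh-like cells (triangles), where a filled symbol has an adjusted p under 0.05. Pclaf is filled in both, Rrm2 in Tfh-like cells only, and most members lie near 0.

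The Pclaf difference rested on few cells. In mutant 1, 176 Pclaf UMIs came from 40 cells, and 5 cells held 103 of them. In mutant 2, 43 UMIs came from 12 cells, and 5 cells held 36. WT 1 and WT 2 had 83 UMIs in 40 cells and 69 UMIs in 29 cells, with 43 and 36 UMIs in the 5 highest cells. Of the mutant UMIs 135 and 35 lay in Tfh-like cells, against 18 and 29 in WT. In cells rich in the other 37 genes Pclaf stood at 40.2, 79.7, 237 and 232 CPM, and in the remaining cells at 4.79, 7.19, 8.43 and 5.30 CPM. With member-rich cells left out, the Pclaf log2 fold change over all kept T cells was 0.02 (edgeR adjusted p = 0.989). The call was also lost without WT 1 (0.94, edgeR adjusted p = 0.177), without mutant 1 (1.41, edgeR adjusted p = 0.0928), at equal state shares with 171 cells per library (1.10, edgeR adjusted p = 0.425) and with the B-like cluster kept (0.61, edgeR adjusted p = 0.682).

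B-like cells held Pclaf at 426 CPM, and the summed B marker level in kept T cells moved with genotype as given above. At the ratio of Pclaf to B markers seen in B-like cells, that level corresponds to 2.80, 3.93, 4.97 and 5.82 CPM of Pclaf in WT 1, WT 2, mutant 1 and mutant 2, against measured levels of 6.86, 12.03, 22.3 and 25.2 CPM before TMM scaling. Within member-rich cells the B markers summed to 177, 290.3, 318 and 458 CPM in the same order. The ratio is a mean over all B-like cells, while few T cells held most Pclaf UMIs, so it cannot describe single cells. The part of B cell RNA in the Pclaf levels was not tested.

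Histone genes and genes of later phases of the cycle were compared in the same fit. Over all kept T cells, 6 of 15 tested replication-dependent histone genes were higher in mutant and 0 lower (median log2 fold change 0.66). Hist1h2ap stood at 20.7, 19.5, 88.3 and 89.4 CPM (2.14 ± 0.15, edgeR adjusted p = 7.09e-07), and Hist1h2ae, Hist1h1b, Hist1h3c, Hist1h2ab and Hist1h4d passed as well, at log2 fold changes of 0.84 to 4.26. Transcripts of these histone genes mostly lack a poly(A) tail, and near-identical copies can share reads, so single histone genes are uncertain. Of 51 tested G2 and mitosis genes 5 were higher and 0 lower (median 0.77), namely Nusap1 (2.87), Mki67 (1.43), Top2a (0.95), Knl1 (1.87) and Ube2c (1.68). Of 45 other replication and S phase genes 1 was higher, cyclin A2 (Ccna2, 2.30), and the median was 0.03. None of 8 G1 drivers passed, and of 12 brakes Cdkn2d was lower (-0.78). Knl1 lost its call under 10 of 17 alternative settings, Ube2c and Cdkn2d under 9 of 17, Hist1h4d under 8 of 17 and Ccna2 under 6 of 16, and without mutant 1 Ube2c stood at 0.29. With member-rich cells left out, Hist1h2ap (0.57, edgeR adjusted p = 0.382) and Top2a (0.09, edgeR adjusted p = 0.912) did not pass. B-like cells held Hist1h2ap at 1181 CPM, and the B marker level corresponds at that ratio to 7.77, 10.9, 13.8 and 16.1 CPM of Hist1h2ap against measured levels of 20.3, 19.4, 86.7 and 93.0 CPM. This ratio too is a mean over all B-like cells, and the part of B cell RNA in the Hist1h2ap levels was not tested.

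These genes were then compared between genotypes as a difference within each library, member-rich against other cells, in a test added after the data were seen. Of 7862 genes that are not members 13 passed (0.165%), 11 with a log2 difference above 0, mutant minus WT (0.140%), and 2 with one below 0 (0.0254%), by edgeR with the same adjustment. Histones made up 5 of the 13, from 8 tested, and G2 and mitosis genes 3, from 20 tested. Hist1h2ap stood at 19.0 CPM in member-rich against 21.0 CPM in other cells in WT 1 and at 42.4 against 17.8 CPM in WT 2. In mutant 1 it stood at 1058 against 21.1 CPM and in mutant 2 at 548 against 46.6 CPM. In other cells WT 1, WT 2 and mutant 1 were close and mutant 2 was higher, while in member-rich cells both mutant libraries lay far above both WT libraries. The log2 difference between genotypes was 4.48 ± 0.52 (SE, edgeR adjusted p = 0.000164), and DESeq2 did not call it (adjusted p = 0.332).

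Top2a, the topoisomerase that untangles replicated DNA, stood in member-rich cells at 54.1, 69.7, 343 and 271 CPM in WT 1, WT 2, mutant 1 and mutant 2, and in other cells at 17.5, 21.4, 16.8 and 27.8 CPM (2.35 ± 0.34, edgeR adjusted p = 0.00161). Mki67, a marker of cycling cells, stood at 14.6, 21.2, 248 and 129 CPM in member-rich cells. In other cells it stood at 9.31, 20.4, 24.1 and 25.2 CPM, so in WT 2 the levels were close. Few cells held the histone UMIs. The listed histones gave 122, 77, 1290 and 257 UMIs in the 43, 23, 33 and 9 member-rich cells, and the 3 highest cells held 22.1%, 49.4%, 81.2% and 87.5% of them. Cells with at least 100 histone UMIs numbered 4 in mutant 1, 1 in mutant 2 and 0 in both WT libraries. Without mutant 1, 4 genes passed in place of 13.

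**Figure D5:**
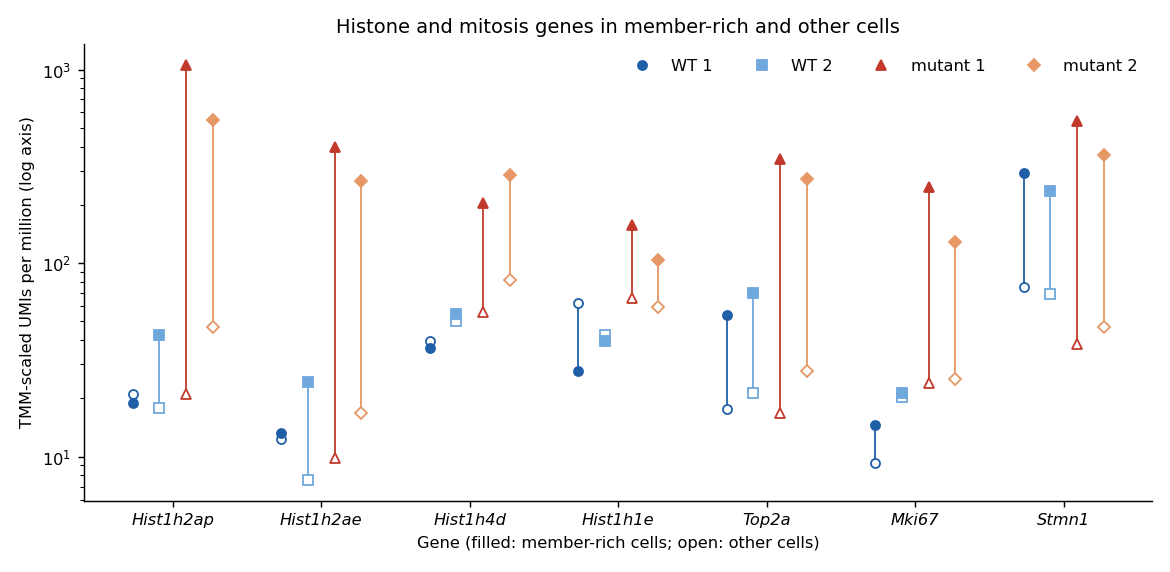
TMM-scaled CPM, on a log axis, of 4 histone genes and of Top2a, Mki67 and Stmn1 in member-rich cells (filled) and other cells (open) of each library. Filled symbols of both mutant libraries lie above those of both WT libraries for every gene drawn, as for Hist1h2ap at 1058 and 548 against 19.0 and 42.4.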

How the data were processed

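Single-cell 3′ UMI counts were deposited by the authors as 4 matrices, 1 per library, made with Cell Ranger 6.0.0 per the file headers and the submitters' processing notes, which also name Seurat 4 and mm10. The counts are not normalized. A further 2 WT hashtag samples were not analysed here. No column of another sample was found (0).

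Of 4803 barcodes, 3108 had at least 500 genes and at most 10% mitochondrial UMIs. Scrublet called 31 doublets, and 64 B-like and 25 epithelial-like cells were left out. States came from Leiden clusters (scanpy 1.11.5, leidenalg 0.10.2, resolution 0.8, 30 components, 15 neighbours) on 1672 of 2000 variable genes, without the members, the other cell cycle lists and technical genes. A cluster was named when at least 3 fixed markers were among its 50 leading genes at 2-fold or more, without a tie. Counts were summed per library and tested with edgeR 4.0.16 (quasi-likelihood, filterByExpr, TMM) in R 4.3.3, with Benjamini-Hochberg adjustment over all genes and a threshold of 0.05, and with DESeq2 1.42.0 as an alternative. Plain CPM are UMIs per 1000000 UMIs of the library. Replicate numbers are shared by the labels, which do not say that they pair libraries, so no block was used. Each test was tested on simulated data with known changes, in which all genes had the same spread between libraries (1 common dispersion). Recovery was therefore not measured for genes whose UMIs lie in few cells, such as Pclaf and the histones. Of simulated 2-fold and 4-fold changes over 10557 genes in all kept T cells, 76.6% and 96.4% were recovered. Recovery of 2-fold changes was 73.8% over 8844 genes in Tfh-like cells, 59.8% over 8350 in cluster 1 and 38.6% over 6700 in naive or memory-like cells. It was 81.2% over 7688 genes in member-rich against other cells and 22.7% over 7687 for the difference between genotypes in that contrast (67.7% at 4-fold). Intervals are exact Clopper-Pearson at 95% and cover counting error only.

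The members and lists were chosen with earlier results of these data known. Named are the 10 members with the most UMIs, members past a genotype threshold, the highest and lowest member of each role, and of each list the 3 genes with the most UMIs and those past the genotype threshold, with the 5 largest rises and falls in member-rich cells. Other genes named, such as Cdk6, Myc, Rbl1 and those that set states apart in member-rich cells, were chosen after their values were seen. Also chosen after seeing the matrices were the technical genes left out, the rules for leading genes and ties, the removal of the B-like cluster and the test of the difference between genotypes in member-rich against other cells. Alternatives were the normalization, the count filter, cell filters, the number of members that makes a cell member-rich, thinning, and each library left out.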

Additional observations from a re-analysis of the deposited data

Results flagged for a closer look

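A test of the difference between genotypes in member-rich against other cells, with library as a term, passed for 13 genes that are not members (edgeR, quasi-likelihood, Benjamini-Hochberg). It was added after the data were seen. The log2 difference, mutant minus WT, was 4.48 for Hist1h2ap, 4.21 for Hist1h2ae, 1.84 for Hist1h4d, 1.93 for Hist1h1e and 3.05 for Hist2h2ac, all replication-dependent histones. It was 2.35 for Top2a, 2.70 for Mki67 and 1.68 for Stmn1, which binds tubulin. It was 4.14 for the chemokine receptor Cxcr6, 2.46 for the gut-homing receptor Ccr9 and 0.90 for the galectin Lgals1. It was below 0 for Gpr183, a receptor that guides cells in follicles (-1.57), and for the growth factor Csf1 (-4.21). Stmn1 stood at 291 CPM in member-rich against 75.7 CPM in other cells in WT 1 and at 236 against 68.9 CPM in WT 2. In mutant 1 it stood at 541 against 38.3 CPM and in mutant 2 at 361 against 46.6 CPM. Both mutant libraries were thus higher than both WT libraries in member-rich cells and lower in other cells. Over all kept T cells the genotype log2 fold change of Stmn1 was -0.23 and did not pass. Gpr183 stood at 176 CPM in member-rich against 247 CPM in other cells in WT 1, 149 against 190.0 in WT 2, 43.9 against 176 in mutant 1 and 38.7 against 163 in mutant 2. Csf1 stood at 10.2 against 19.4 CPM, 39.4 against 25.5, 3.99 against 65.9 and 0.0 against 45.3 in the same order. Gpr183 was thus further below the other cells in both mutant libraries than in either WT library. Csf1 was below the other cells in WT 1, further below them in both mutant libraries, and above them in WT 2. Levels of Csf1 in other cells were higher in both mutant libraries than in both WT libraries.

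Hist1h2ae passed under all 11 alternative settings tried, Hist1h2ap, Stmn1 and Top2a under 10 of 11, Lgals1 and Ccr9 under 5 of 11, and Csf1 under 4 of 11. Cxcr6 was at 8.78, 3.03, 55.9 and 0.0 CPM in the member-rich cells of WT 1, WT 2, mutant 1 and mutant 2, so its value rests on mutant 1. The part that depth, the antibody tags of the WT libraries or free RNA may have in these values was not tested.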

How the results depend on the processing

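Genes past the genotype threshold in all kept T cells numbered 165, and 63 in DESeq2, 82 without TMM, 419 without the count filter, 75 with doublets kept, 13 at equal state shares, 21 with the B-like cluster kept and 44 to 265 with 1 library left out. Members past it numbered 1, and 2 without the count filter, 0 without member-rich cells, at equal state shares or with the B-like cluster kept, and 0 to 2 with 1 library left out. In Tfh-like cells 40 genes became 5 in DESeq2, 94 without the filter and 27 to 180 with 1 library left out, and 2 members became 0 in DESeq2, 1 without TMM and 0 to 2 with 1 library left out. In cluster 1, 0 genes became 1 in DESeq2, 46 without the filter and 0 to 16 with 1 library left out. In naive or memory-like cells 31 genes became 6 in DESeq2 and 10 to 116 with 1 library left out, and 0 members became 1 without the filter and 0 to 2 with 1 library left out. The cause was not tested.

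With a replicate block, 395 genes and 2 members passed in all kept T cells, 10 and 1 in Tfh-like cells and 4 genes in cluster 1. The shared numbers did not deviate together (r = 0.01 over 10731 genes).

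The share of member-rich cells in WT 1, WT 2, mutant 1 and mutant 2 was 18.3%, 18.2%, 15.2% and 23.7% at 5 or more members, 0.961%, 2.17%, 1.82% and 2.56% at 12 or more, and 22.3%, 20.8%, 17.7% and 26.8% without thinning. Thinned to 2000 UMIs it was 0.780%, 1.44%, 1.49% and 3.03%. The median fold of 8.07 became 3.97, 9.86, 3.12 and 10.3 under these settings. The summed level in the same order was 904, 966, 941 and 1178 CPM without Dut and 1017, 1133, 1061 and 1299 CPM with the B-like cluster kept. Genes that differ in member-rich cells fell from 2242 to 1115 at 5 or more members and to 802 without cluster 4. The difference between genotypes gave 13 genes, 5 in DESeq2, 40 without the filter and 4 to 37 with 1 library left out. Reversed were Ctla4 (-0.11 at 5 or more members) and, at 12 or more, Cxcr6 (-1.15) and Ccr9 (-7.74). Low depth limits E2f8, Exo1, Ccne2 and Cdc6, with at most 65 UMIs each.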

Other observations

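The B-like cells held more of the fork genes than any T cell state, with 1346 CPM against 619 CPM in cluster 4, and Pclaf at 426 CPM. Licensing genes stood at 594 CPM in B-like cells and 632 CPM in cluster 4. These are sums over 64 cells, 31 of them from WT 2, and 7 of the 64 had a UMI of a Cd3 gene.

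Barcodes over the mitochondrial limit with at least 4000 UMIs held 7 member-rich cells of 150 (4.67%, exact Clopper-Pearson interval 1.90 to 9.38), with 1 of 23 in WT 1, 0 of 61 in WT 2, 5 of 54 in mutant 1 and 1 of 12 in mutant 2. The count of 0 in WT 2 allows a share of up to 4.92% (3 counts of the total).

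Among member-rich cells, 0 of 43 in WT 1, 0 of 23 in WT 2, 6 of 33 in mutant 1 and 2 of 9 in mutant 2 had UMIs of at least 15 G2 and mitosis genes after thinning. Other cells at that count numbered 4 of 1206, 6 of 575, 8 of 791 and 1 of 147 in the same order. At the count of 8 genes used above, the genotypes overlapped. There 6 of 43, 6 of 23, 8 of 33 and 3 of 9 member-rich cells reached it (14.0%, 26.1%, 24.2% and 33.3%).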
